A study of Juglans cathayensis with 6 samples.

Results

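Phenylalanine ammonia-lyase (PAL) and cinnamate 4-hydroxylase (C4H) open the general phenylpropanoid pathway. The 3 genes described here were taken by their assembly identifiers from the 39234 genes of a husk transcriptome of *Juglans cathayensis*, the Chinese walnut. They are 2 PAL genes, TRINITY_DN15955_c0_g1 (annotated as PAL-like) and TRINITY_DN11948_c0_g1 (annotated as PAL), and the C4H gene TRINITY_DN14226_c0_g1. The husk is the fleshy outer layer of the walnut fruit. RNA was sequenced from 2 varieties, 3 libraries from a variety whose husk is recorded as brown when freshly cut and 3 from a variety whose husk is recorded as white. All 6 libraries are of untreated husk and carry a time label of 35 days, whose starting point the labels do not give. The study's question was the browning of cut husk, in which enzymes turn phenolics into dark pigments. Colour and variety cannot be told apart, since each colour is a single variety. No label says that the libraries of a variety came from separate trees, so p-values measure only the spread between these libraries, which may be technical.

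PAL is a cytosolic enzyme that removes ammonia from phenylalanine and leaves cinnamic acid. C4H is a cytochrome P450 of the endoplasmic reticulum that adds a hydroxyl group to cinnamic acid, with electrons from NADPH--cytochrome P450 reductase, and so makes p-coumaric acid. The next enzyme, 4-coumarate--CoA ligase, activates that acid for lignin, flavonoids, condensed tannins and other phenolics, some of which polyphenol oxidases and peroxidases can oxidize. In plants PAL is encoded by small gene families whose members are commonly induced by wounding and pathogens.

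Values are TPM, a relative abundance corrected for gene length, so levels can be set side by side between genes. Log2 fold changes are the brown mean of log2(TPM + 1) minus the white mean, a scale on which changes of low genes come out too small. A gene is said to have risen or fallen at an adjusted p under 0.05 (limma over all tested genes, Benjamini-Hochberg). The libraries held 34826 to 35240 genes at 1 TPM or more in brown husk and 28349 to 33949 in white husk. White replicate 2 held the lowest number, and its 100 highest genes took 34.0% of TPM, against 24.7% to 27.2% in the other libraries. Read depth is unknown, since TPM keeps none. Of 37829 genes tested, 1450 rose and 819 fell in brown husk. Under trimmed mean of M values factors the split was 1298 against 1214, and under quantile normalization 1259 against 1275. Over all tested genes the median log2 fold change was 0.19 with TPM as deposited, 0.019 with those factors and -0.013 after quantile normalization.

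The PAL-like gene was far higher in brown husk, while the other PAL gene and the C4H gene varied within each variety by as much as between them. Of the 3 genes, 1 rose and none fell, against 3.83% of all tested genes that rose and 2.17% that fell. At an unadjusted p under 0.05 by limma the same gene was higher and none was lower, against 14.7% and 6.79% of all tested genes. Relative to the median of all tested genes, the log2 fold changes were 3.34 for the PAL-like gene, 1.10 for the PAL gene and 0.015 for the C4H gene. In bulk tissue, fewer cells of a type and less RNA per cell cannot be told apart.

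The PAL-like gene TRINITY_DN15955_c0_g1 had 26.7, 84.9 and 52.0 TPM in brown replicates 1, 2 and 3, against 4.99, 1.65 and 4.2 TPM in white replicates 1, 2 and 3. The lowest brown library lay above the highest white library, as was so for 20.2% of tested genes. The means were 54.6 ± 29.2 TPM in brown and 3.61 ± 1.75 TPM in white husk (SD, n = 3 each). Its log2 fold change was 3.53 ± 0.46 (SE, limma adjusted p = 0.00789), with a 95% interval of 2.45 to 4.61. In the order of all genes by TPM within a library, it stood at the 84.7th to 95.4th percentile in brown and at the 39.2nd to 55.5th percentile in white husk. Leaving out any 1 of the 6 libraries kept it past the threshold, with log2 fold changes of 3.14 to 3.95 and adjusted p-values of 0.0109 to 0.0432.

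The PAL gene TRINITY_DN11948_c0_g1 had 15.7, 68.7 and 45.2 TPM in brown replicates 1, 2 and 3, against 30.1, 4.03 and 22.3 TPM in white replicates 1, 2 and 3. The groups overlapped, with brown replicate 1 below 2 of the white libraries. Means were 43.2 ± 26.6 TPM in brown and 18.8 ± 13.4 TPM in white husk (SD, n = 3 each). The log2 fold change of 1.29 ± 0.76 (SE) did not pass the threshold (limma adjusted p = 0.379), and its 95% interval reached from -0.49 to 3.07. Without white replicate 2 the log2 fold change was 0.49. The spread within groups was large for this gene, whose residual SD of 1.25 on the log2 scale exceeded that of 97.5% of tested genes.

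The C4H gene TRINITY_DN14226_c0_g1 was the highest of the 3 genes in 5 of the 6 libraries. It had 23.5, 102 and 69.9 TPM in brown replicates 1, 2 and 3, against 79.5, 21.98 and 62.3 TPM in white replicates 1, 2 and 3. The groups overlapped, since each held 1 low library, brown replicate 1 and white replicate 2, and others above 60 TPM. The means of 65.2 ± 39.5 TPM in brown and 54.6 ± 29.5 TPM in white husk (SD, n = 3 each) differed by less than either SD. The log2 fold change was 0.20 ± 0.62 (SE, limma adjusted p = 0.882), with a 95% interval of -1.25 to 1.66, which does not show that the varieties are alike. Its sign depended on the libraries and the scaling, with -0.34 without white replicate 2, -0.23 without brown replicate 2 and -0.0071 under trimmed mean of M values factors. The residual SD was 1.02 on the log2 scale, at the 92.7th percentile of tested genes.

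**Figure D1:**
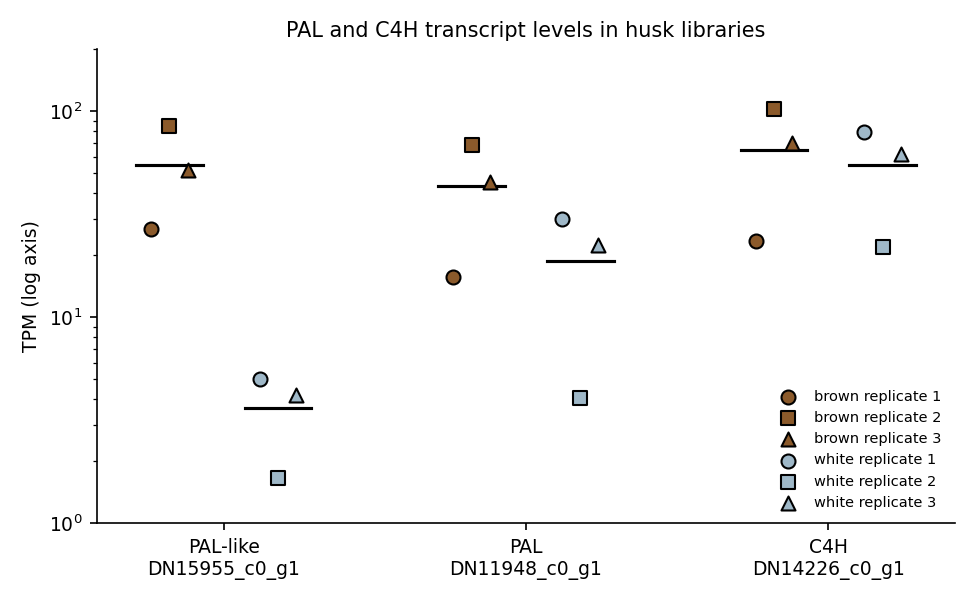
TPM of the 3 genes on a log axis, with brown libraries left of white ones for each gene, a symbol for each replicate number and a bar at the mean of 3 libraries. For the PAL-like gene all brown libraries (26.7 to 84.9 TPM) lie above all white ones (1.65 to 4.99 TPM), and for the PAL and C4H genes the groups overlap.

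The order of levels among the 3 genes differed between the varieties. In brown husk the means ran from C4H at 65.2 TPM to PAL-like at 54.6 TPM and PAL at 43.2 TPM, and no neighbours in that order differed beyond their SDs. In white husk the order was C4H at 54.6 TPM, PAL at 18.8 TPM and PAL-like at 3.61 TPM, with the ranges of neighbours overlapping, and it was the same in all 3 white libraries. Brown replicates 2 and 3 had the order of the brown means, and in brown replicate 1 the PAL-like gene was above C4H.

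All 3 genes shared the ranking of libraries within each variety, highest in brown replicate 2, then 3, then 1, and highest in white replicate 1, then 3, then 2. Of all tested genes, 20.3% had that brown ranking, 42.6% had that white ranking and 7.71% had both. From the lowest to the highest brown library the PAL-like gene spanned 3.18-fold, the PAL gene 4.39-fold and the C4H gene 4.34-fold. Among white libraries the spans were 3.02-fold for PAL-like, 7.47-fold for PAL and 3.61-fold for C4H. The labels record no difference among the libraries of a variety.

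Ratios within a library take out what the genes share. PAL over C4H was 0.666, 0.673 and 0.646 in brown replicates 1, 2 and 3, while both genes changed more than 4-fold across those libraries. In white replicates 1, 2 and 3 that ratio was 0.379, 0.183 and 0.358. All brown ratios were above all white ones, and the brown ones lay within a narrow range.

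PAL-like over C4H was 1.14, 0.831 and 0.745 in brown replicates 1, 2 and 3, against 0.0628, 0.0751 and 0.0674 in white replicates 1, 2 and 3. PAL-like over PAL was 1.71, 1.24 and 1.15 in the brown libraries, against 0.166, 0.409 and 0.188 in the white ones. The groups did not overlap for any of the 3 ratios. These ratios come from 3 genes and are not independent, and the PAL-like gene enters both PAL-like ratios. How often ratios of other gene pairs separate the groups was not computed. Of single tested genes, 20.2% had all brown libraries above all white ones and 8.85% had all below. On the log2(TPM + 1) scale, brown minus white was 3.32 for PAL-like over C4H, 2.23 for PAL-like over PAL and 1.09 for PAL over C4H. Each of the 3 gave an exact two-sided permutation p of 0.1, also 0.1 after Benjamini-Hochberg adjustment over the 3, which is the smallest that 3 libraries against 3 can give, so no ratio could pass 0.05. White replicate 2 held the white extreme of all 3 ratios. Without it the differences were 3.51, 2.68 and 0.83 in the same order.

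**Figure D2:**
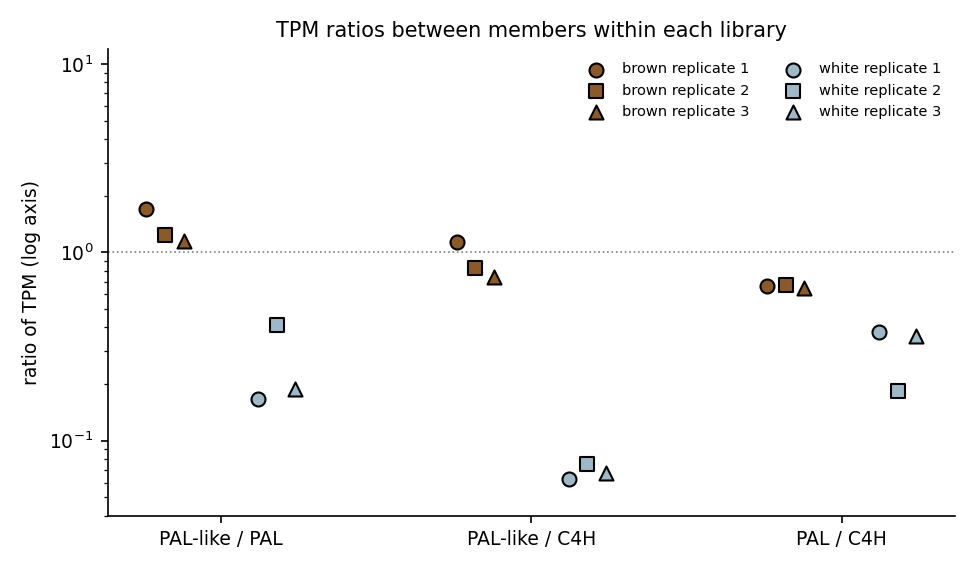
Ratios of TPM between the 3 genes in each library on a log axis, brown left of white, with a symbol for each replicate number and a dotted line at equal TPM. PAL over C4H lies at 0.646 to 0.673 in the 3 brown libraries and at 0.183 to 0.379 in the white ones, and PAL-like over C4H at 0.745 to 1.14 in brown and 0.0628 to 0.0751 in white.

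The table lists 6 genes described as PAL, which are the 2 above, another long one and 3 short ones. At an unadjusted p under 0.05 by limma, 3 of the 6 were higher and 0 lower, against 14.7% and 6.79% of all tested genes. Their median log2 fold change was 0.97, against 0.19 for all tested genes. The other long gene is TRINITY_DN17241_c0_g1, PAL-like, assembled at 2347 bases, close to the 2550 bases of TRINITY_DN15955_c0_g1 and the 2729 bases of TRINITY_DN11948_c0_g1. It had 7.47, 6.57 and 7.71 TPM in brown replicates 1, 2 and 3, against 25.9, 3.36 and 20.4 TPM in white replicates 1, 2 and 3. Its brown libraries lay close together, below white replicates 1 and 3 and above white replicate 2. The log2 fold change was -0.72 ± 0.63 (SE, limma adjusted p = 0.557). Without white replicate 2 it was -1.54 and passed the threshold (limma adjusted p = 0.0104, in a range of 0.0104 to 0.853 over 15 alternatives).

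The 3 short PAL genes are of 221 to 640 bases. TRINITY_DN11049_c0_g1 (221 bases) had 2.62, 13.0 and 5.08 TPM in brown replicates 1, 2 and 3, against 1.16, 0 and 0 TPM in white replicates 1, 2 and 3. It entered the test through its brown values and did not pass (log2 fold change 2.39 ± 0.57, limma adjusted p = 0.0564). TRINITY_DN15955_c0_g3 (262 bases) had 8.56, 11.3 and 8.85 TPM in brown husk, against 3.8, 6.25 and 7.48 TPM in white husk (limma adjusted p = 0.217). TRINITY_DN15955_c0_g5 (640 bases) had 3.02 to 4.51 TPM in brown and 0.99 to 3.92 TPM in white husk (limma adjusted p = 0.487).

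TRINITY_DN15955_c0_g3 and TRINITY_DN15955_c0_g5 share an assembly cluster with the PAL-like gene that rose. Its other genes, neither with a naming description, are TRINITY_DN15955_c0_g4, at 5.78 to 7.48 TPM in brown and 6.69 to 10.5 TPM in white husk, and TRINITY_DN15955_c0_g2, at 3.93 to 4.30 TPM in brown and 2.88 to 4.31 TPM in white husk. No gene of that cluster other than TRINITY_DN15955_c0_g1 passed the threshold. Reads from near-identical copies can be split between genes of a cluster, so the TPM of each is uncertain. The PAL gene TRINITY_DN11948_c0_g1 was alone in its cluster.

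Summed over the 6 genes, PAL transcript was 64.0, 188 and 123.3 TPM in brown replicates 1, 2 and 3, against 69.8, 16.3 and 56.8 TPM in white replicates 1, 2 and 3. The groups overlapped, since brown replicate 1 was below white replicate 1. Whether the short genes are parts of longer ones, so that a transcript counts more than once in the sum, was not tested. The shares of single genes in that sum are given without a test. In white replicate 2 the largest share was that of the 262-base TRINITY_DN15955_c0_g3, at 38.4%, against 5.44% to 13.4% in the other libraries. TRINITY_DN15955_c0_g1 gave 41.7%, 45.1% and 42.2% of PAL TPM in brown replicates 1, 2 and 3, against 7.15%, 10.1% and 7.40% in white replicates 1, 2 and 3. TRINITY_DN17241_c0_g1 gave 11.7%, 3.49% and 6.25% in the brown libraries, against 37.0%, 20.6% and 35.8% in the white ones. TRINITY_DN11948_c0_g1 gave 32.5% ± 7.003 in brown and 35.7% ± 9.69 in white husk (SD, n = 3 each), and there the groups overlapped. Summed PAL over C4H was 2.72, 1.84 and 1.77 in the brown libraries, against 0.879, 0.741 and 0.911 in the white ones.

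**Figure D3:**
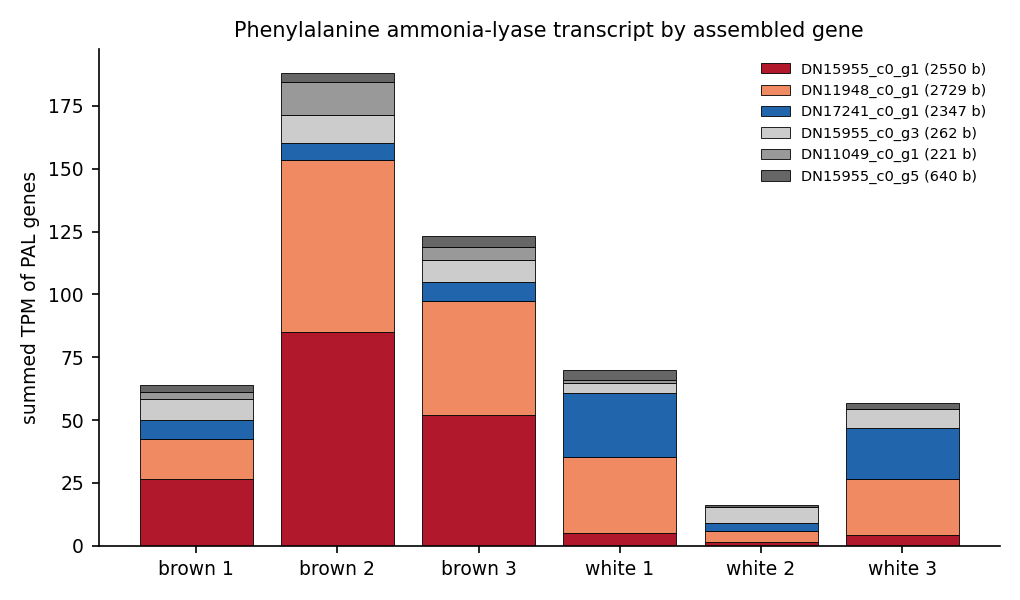
Summed TPM of the 6 PAL genes in each library, brown left of white, as stacked bars starting at 0 with a colour for each gene and its assembled length in bases (b). TRINITY_DN15955_c0_g1 takes 41.7% to 45.1% of each brown bar and 7.15% to 10.1% of each white bar, and TRINITY_DN17241_c0_g1 takes 3.49% to 11.7% of brown and 20.6% to 37.0% of white bars.

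A second gene of the C4H family, the CYP73A100-like TRINITY_DN15614_c0_g4 (1850 bases), had 0.31, 5.18 and 2.5 TPM in brown replicates 1, 2 and 3, against 0.07, 0.04 and 0.24 TPM in white replicates 1, 2 and 3. All brown values were above all white ones, but only 2 libraries reached 1 TPM, so the gene was not tested. It was low beside the C4H gene TRINITY_DN14226_c0_g1 in every library. The other gene of the C4H assembly cluster, TRINITY_DN14226_c0_g2 (261 bases, no naming description), had 2.59 to 9.43 TPM in brown and 2.52 to 3.84 TPM in white husk (limma adjusted p = 0.457).

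Genes with the profile closest to each of the 3 were found by the root mean square difference of log2(TPM + 1), each centred on its own mean over the 6 libraries, among genes of at least 5 TPM on average. Only tested genes whose description names a protein were searched, so genes without such a description may lie closer. For the PAL-like gene the closest was an endochitinase-like gene (TRINITY_DN13370_c0_g2), of the enzymes that cut chitin, at a difference of 0.14. That gene had 38.5, 129 and 90.8 TPM in brown replicates 1, 2 and 3, against 6.95, 2.4 and 6 TPM in white replicates 1, 2 and 3. The next were a cell wall beta-fructofuranosidase (TRINITY_DN14904_c1_g8, 0.22), which splits sucrose outside the cell, and a chalcone synthase-like gene (TRINITY_DN447_c0_g1, 0.23). After them came a dirigent protein 19-like gene (TRINITY_DN13193_c1_g8, 0.25), of a family that steers the coupling of phenolic radicals, and WRKY transcription factor 50 (TRINITY_DN11613_c1_g7, 0.27).

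The PAL gene was closest to chalcone synthase 1 (TRINITY_DN11788_c1_g3, 0.20), the first enzyme of flavonoid synthesis. That gene had 56.8, 262 and 166 TPM in brown replicates 1, 2 and 3, against 118, 25.6 and 83.7 TPM in white replicates 1, 2 and 3. Next to it stood a TIFY 10A-like gene (TRINITY_DN9675_c0_g1, 0.22), of the jasmonate repressor family, and a 4-coumarate--CoA ligase 2-like gene (TRINITY_DN10599_c0_g1, 0.25). Anthocyanidin reductase (TRINITY_DN10855_c0_g1, 0.27), which makes units of condensed tannin, and chalcone--flavonone isomerase 3 (TRINITY_DN10815_c0_g1, 0.29) followed. Like the PAL gene whose profile chose them, these 5 genes did not pass between varieties (limma adjusted p = 0.204 to 0.528).

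The C4H gene was closest to a gene for the lipid-transfer protein DIR1 (TRINITY_DN2668_c0_g1, 0.14), known from systemic resistance in Arabidopsis. It was followed by a myb-related Hv1-like gene (TRINITY_DN11794_c2_g1, 0.17), a 3-hydroxy-3-methylglutaryl-coenzyme A reductase 1-like gene of the mevalonate pathway (TRINITY_DN14367_c0_g6, 0.19), a trichome birefringence-like 36 gene (TRINITY_DN11688_c0_g2, 0.20) and a Dof factor (TRINITY_DN14430_c0_g11, 0.26). Among 15802 genes of at least 5 TPM, with or without a naming description, C4H ranked 102 by closeness to the PAL gene. PAL ranked 351 by closeness to C4H. By closeness to the PAL-like gene, PAL ranked 620 and C4H ranked 4150. In the other direction the PAL-like gene ranked 10137 by closeness to PAL and 15550 by closeness to C4H. These are descriptions over 6 libraries that share varieties and preparation.

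**Figure D4:**
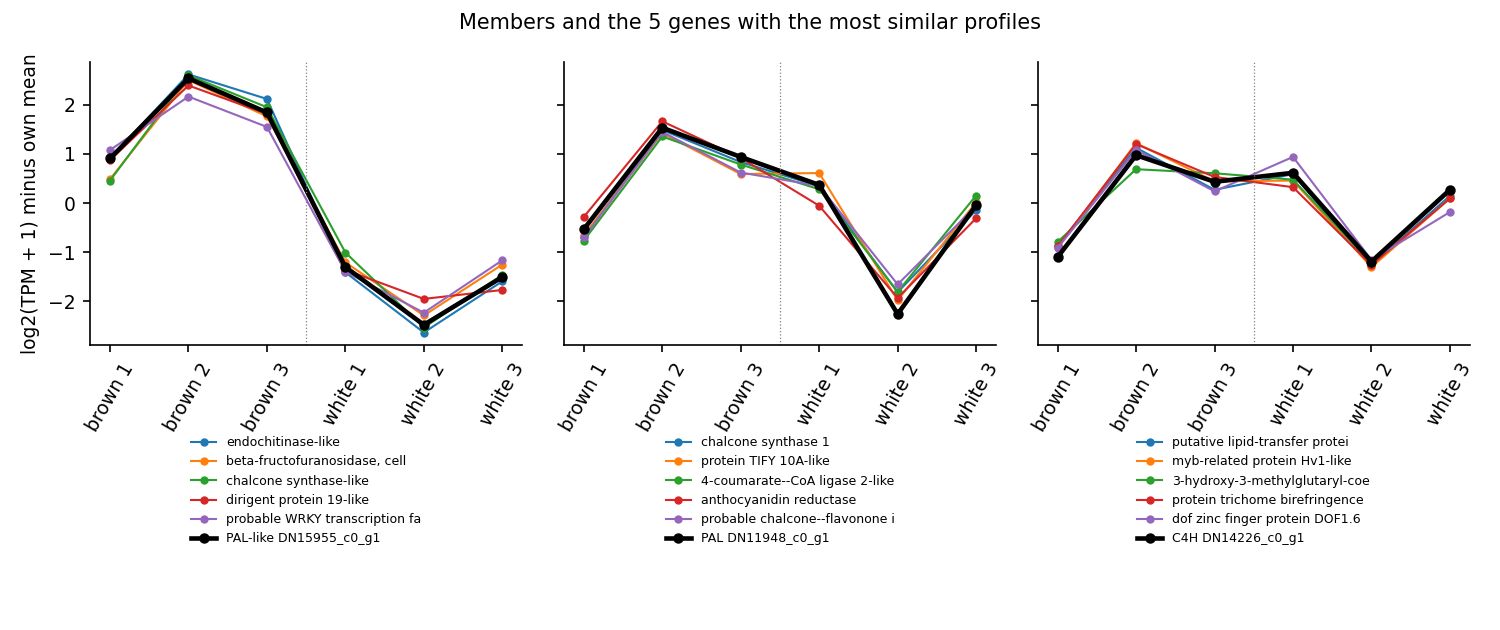
Values of log2(TPM + 1) minus each gene's own mean over the 6 libraries, brown left of white, for each of the 3 genes (black) and the 5 genes closest to it (coloured) among those with a naming description. Lines join libraries only to show a gene's values together. The PAL-like panel separates the varieties. Within each variety the genes of all 3 panels are lowest in brown replicate 1 and white replicate 2.

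Genes that supply or use the PAL and C4H steps were gathered in 9 further lists by their descriptions. Over all 11 lists, 6 of 115 tested genes other than the 3 described above rose and 3 fell, against 3.83% and 2.17% of all tested genes. By that count the lists together lay near the background. At an unadjusted p under 0.05 by limma the lists were not alike. The MYB list had 8 of 23 genes higher and 2 lower, and the lignin list 4 of 30 higher and 1 lower. Of all tested genes, 14.7% were higher and 6.79% lower. Of the genes that fell, TRINITY_DN12054_c4_g7 and TRINITY_DN5248_c0_g1 entered the test only through their white values. Without 1 library the total of 9 became 1 when brown replicate 2, brown replicate 3 or white replicate 3 was left out, and 4 without brown replicate 1.

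None of 13 genes for the last steps to phenylalanine (chorismate mutase, prephenate aminotransferase and arogenate dehydratase) passed by limma, and at an unadjusted p under 0.05 there were 1 higher and 1 lower, against 14.7% and 6.79% of all tested genes. Under each of the other scalings 1 gene of the list was called lower, a prephenate aminotransferase gene (TRINITY_DN17313_c0_g1), named after its values were seen. The median log2 fold change of that list was 0.28, against 0.19 for all tested genes. Its highest gene, a bifunctional aspartate and prephenate aminotransferase (TRINITY_DN13313_c0_g1), had 82.5, 97.6 and 95.7 TPM in brown replicates 1, 2 and 3, against 92.3, 73.5 and 84.5 TPM in white replicates 1, 2 and 3. Chorismate mutase 1 (TRINITY_DN15305_c0_g1), which commits chorismate to phenylalanine and tyrosine, had 50.2 to 56.5 TPM in brown and 24.6 to 50.5 TPM in white husk (limma adjusted p = 0.366).

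Ammonium freed by PAL is taken up again by glutamine synthetase and glutamate synthase. Of 14 tested genes matched by those names, 1 rose and 1 fell, against 3.83% and 2.17% of all tested genes. At an unadjusted p under 0.05 by limma, 4 were higher and 1 lower, against 14.7% and 6.79% of all tested genes. The list also holds folylpolyglutamate synthases, folate enzymes whose name contains the same words. An NADH-dependent glutamate synthase (TRINITY_DN15929_c0_g1) had 12.2, 16.1 and 14.1 TPM in brown replicates 1, 2 and 3, against 2.61, 3.04 and 2.82 TPM in white replicates 1, 2 and 3. That rise (log2 fold change 1.98 ± 0.21, SE, limma adjusted p = 0.00377) held whichever of the 6 libraries was left out. A cytosolic glutamine synthetase (TRINITY_DN12054_c4_g7) was listed at 0 in all brown libraries and at 1.14 to 2.37 TPM in white husk. It entered the test only through its white values. Its fall was lost without any library other than white replicate 2 (limma adjusted p = 0.0320 to 0.124 over the 6 fits). The most abundant glutamine synthetases, TRINITY_DN13538_c1_g1 at 207 to 314 TPM in brown and 192 to 416 TPM in white husk and TRINITY_DN12211_c1_g8 at 68.1 to 93.4 and 49.8 to 224 TPM, did not pass. Without white replicate 2 TRINITY_DN12211_c1_g8 was lower in brown (log2 fold change -1.22, limma adjusted p = 0.0268, in a range of 0.0268 to 0.874 over the 6 fits).

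Neither of 2 genes for the reductase that feeds electrons to C4H passed by limma. Nor did either at an unadjusted p under 0.05, against 14.7% of all tested genes higher and 6.79% lower. NADPH--cytochrome P450 reductase TRINITY_DN13692_c0_g1 had 218 to 244 TPM in brown and 184 to 216 TPM in white husk (limma adjusted p = 0.493), and TRINITY_DN11631_c2_g12 had 19.2 to 25.6 and 15.4 to 21.2 TPM (limma adjusted p = 0.395). Each varied less across libraries than C4H itself, which ran from 21.98 to 102 TPM. None of 3 membrane steroid-binding proteins, which hold phenylpropanoid P450s together in Arabidopsis, passed by limma. At an unadjusted p under 0.05, where 14.7% of all tested genes were higher and 6.79% lower, 0 were higher and 1 was lower. That gene, membrane steroid-binding protein 1 (TRINITY_DN11344_c0_g1), had 179, 195 and 210 TPM in brown replicates 1, 2 and 3, against 234, 325 and 304 TPM in white replicates 1, 2 and 3 (limma adjusted p = 0.121). TRINITY_DN11344_c0_g2 had 150 to 157 TPM in brown and 142 to 167 TPM in white husk.

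Kelch-repeat F-box proteins send PAL to degradation in Arabidopsis, and 2 genes of that kind were listed. The SKIP20-like gene (TRINITY_DN11387_c0_g1) had 13.8, 17.6 and 18.03 TPM in brown replicates 1, 2 and 3, against 8.06, 10.01 and 8.16 TPM in white replicates 1, 2 and 3. It rose (log2 fold change 0.84 ± 0.19, SE, limma adjusted p = 0.0437), but not without any library other than white replicate 2 (limma adjusted p = 0.0331 to 0.179 over the 6 fits) nor under either of the other scalings. The At1g15670-like gene (TRINITY_DN13396_c0_g2) had 74.1 to 101 TPM in brown and 95.9 to 132 TPM in white husk (limma adjusted p = 0.468).

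Downstream, none of 16 genes described as 4-coumarate--CoA ligase or ligase-like passed by limma, with 4 higher and 1 lower at an unadjusted p under 0.05, against 14.7% and 6.79% of all tested genes. The list's median log2 fold change was 0.50, against 0.19 for all tested genes. The most abundant, ligase-like 7 (TRINITY_DN14057_c1_g1), had 141 to 207 TPM in brown and 198 to 232 TPM in white husk. Ligase-like 5 (TRINITY_DN12330_c0_g6) had 32.2 to 50.9 and 47.3 to 68.8 TPM. The genes described as 4-coumarate--CoA ligase 1-like or 2-like were lower in TPM and mostly went the other way. TRINITY_DN12330_c0_g4, TRINITY_DN10487_c0_g2 and TRINITY_DN10599_c0_g1 had log2 fold changes of 1.55, 1.79 and 0.92, and TRINITY_DN10487_c0_g1 had -0.58 (limma adjusted p = 0.103 to 0.509).

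None of 30 genes matched by names of the first lignin steps passed by limma, with 4 higher and 1 lower at an unadjusted p under 0.05, against 14.7% and 6.79% of all tested genes. Some of them are other enzymes by their Swiss-Prot match, such as a monoglyceride lipase (TRINITY_DN10995_c0_g2) and a dihydroflavonol 4-reductase (TRINITY_DN11356_c0_g2). The list's median log2 fold change was 0.19, the same to the printed decimals as over all tested genes. Caffeoyl-CoA O-methyltransferase (TRINITY_DN13907_c0_g2), which methylates lignin precursors, had 391, 379 and 375 TPM in brown replicates 1, 2 and 3, against 220, 62.0 and 180 TPM in white replicates 1, 2 and 3 (log2 fold change 1.49 ± 0.43, limma adjusted p = 0.0974). Without white replicate 2 it passed, at a log2 fold change of 0.93 (limma adjusted p = 0.0220, in a range of 0.0220 to 0.235 over the 6 fits). Cinnamoyl-CoA reductase (TRINITY_DN11587_c1_g7) had 226 to 303 TPM in brown and 179 to 289 TPM in white husk.

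Of 8 genes of the first flavonoid steps, 1 rose and 1 fell, against 3.83% and 2.17% of all tested genes. At an unadjusted p under 0.05 by limma, 2 were higher and 1 lower, against 14.7% and 6.79% of all tested genes. The median log2 fold change of these genes was 0.80, against 0.19 for all tested genes. Without white replicate 1, chalcone synthase 2 (TRINITY_DN8701_c0_g1), named after its values were seen, also passed as higher in brown. The chalcone synthase-like gene TRINITY_DN447_c0_g1 had 8.89, 42.6 and 26.8 TPM in brown replicates 1, 2 and 3, against 2.58, 0.24 and 1.61 TPM in white replicates 1, 2 and 3. It rose by a log2 fold change of 3.34 ± 0.61 (limma adjusted p = 0.0228), and the call was lost without brown replicate 2 or 3 or white replicate 2 or 3 (limma adjusted p = 0.0167 to 0.0983 over the 6 fits). A flavonol synthase/flavanone 3-hydroxylase-like gene (TRINITY_DN5248_c0_g1, 375 bases) had 0.33, 0 and 0 TPM in brown and 3.87, 2.91 and 1.73 TPM in white husk. It entered the test only through its white values. Its fall was lost in each fit that left out 1 library (limma adjusted p = 0.0575 to 0.120). Chalcone synthase 1, the most abundant of the list, overlapped between varieties (limma adjusted p = 0.414). Flavanone 3-hydroxylase (TRINITY_DN14199_c0_g1) did too, with 20.3, 142 and 89.2 TPM in brown replicates 1, 2 and 3, against 78.3, 13.3 and 57.3 TPM in white replicates 1, 2 and 3.

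Among MYB factors of the kinds described for phenylpropanoid control in other plants, 3 of 23 tested genes rose and 1 fell, against 3.83% and 2.17% of all tested genes. The list held 29 genes, and the others did not pass the filter for testing. Some of the untested ones had all brown values above all white ones. An example is the Myb4-like TRINITY_DN13280_c0_g6, at 0.19 to 10.8 TPM in brown and 0 to 0.07 TPM in white husk. The untested TRINITY_DN12316_c1_g6 overlapped between varieties. At an unadjusted p under 0.05 by limma, 8 of the 23 were higher and 2 lower, against 14.7% and 6.79% of all tested genes. The median log2 fold change of the tested genes of the list was 0.50, against 0.19 for all tested genes. Several of these, MYB4 of Arabidopsis and MYB308 of snapdragon among them, are of types known as repressors of phenylpropanoid genes. The genes that rose were the Myb4-like TRINITY_DN13176_c1_g13 (MYB44 by its Swiss-Prot match), with 4.70 to 14.4 TPM in brown and 1.46 to 2.11 TPM in white husk, the Myb4-like TRINITY_DN15078_c0_g2, with 7.04 to 13.4 and 0.83 to 3.37 TPM, and TRINITY_DN12199_c1_g13, of the MYB308 type, with 7.43 to 9.11 and 2.58 to 3.29 TPM. Each of those calls held in 1 of the 6 fits that left out 1 library, without brown replicate 1, white replicate 1 and white replicate 2 in that order. Over those fits the highest limma adjusted p was 0.147, 0.148 and 0.144 in the same order. TRINITY_DN13176_c1_g13 and TRINITY_DN12199_c1_g13 also missed the threshold with trimmed mean of M values factors (limma adjusted p = 0.0527 and 0.0521) and after quantile normalization (0.0673 and 0.0664). The MYB6-like TRINITY_DN12690_c0_g2 fell, with 31.8, 21.2 and 23.5 TPM in brown replicates 1, 2 and 3, against 51.9, 74.8 and 58.3 TPM in white replicates 1, 2 and 3 (log2 fold change -1.25 ± 0.20, SE, limma adjusted p = 0.0165). That fall was lost without brown replicate 2 or 3 or white replicate 3 (limma adjusted p = 0.0223 to 0.0793 over the 6 fits). The most abundant of the list, a MYB6 repressor annotated as partial (TRINITY_DN13820_c1_g3), had 80.4, 122.6 and 74.7 TPM in brown husk, against 59.2, 22.7 and 34.4 TPM in white husk (limma adjusted p = 0.0770), and passed without white replicate 1 (limma adjusted p = 0.0337, in a range of 0.0337 to 0.230 over the 6 fits). The MYB6-like TRINITY_DN12199_c1_g2 had 45.5 to 49.2 TPM in brown and 41.9 to 47.5 TPM in white husk.

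**Figure D5:**
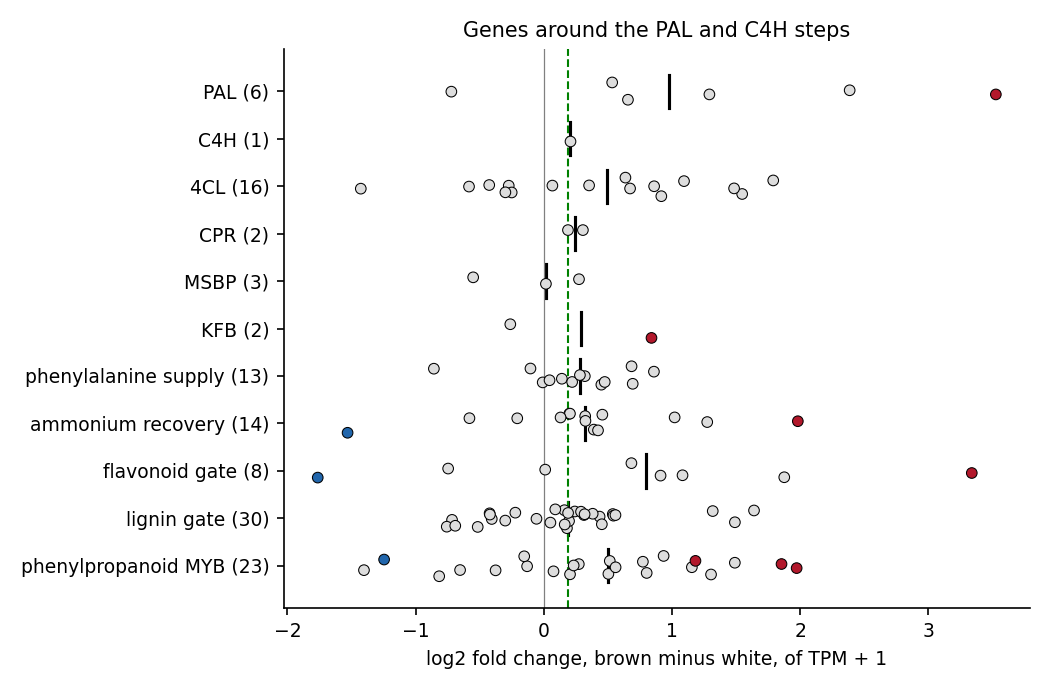
Log2 fold changes, brown minus white, of all tested genes in the 11 lists, with the number tested after each list name, red where a gene rose, blue where it fell and grey otherwise. Black bars are list medians and the green dashed line is the median of all tested genes at 0.19; the PAL-like gene lies farthest right at 3.53. CPR is cytochrome P450 reductase, MSBP membrane steroid-binding proteins and KFB kelch-repeat F-box proteins.

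Marker lists checked the tissue, and the green tissue sum ran opposite to the PAL and C4H values within each variety. All 22 genes of green tissue (light-harvesting, Rubisco small subunit and oxygen-evolving proteins) were at 1 TPM or more in all 6 libraries. None passed between varieties, against 3.83% of all tested genes that rose and 2.17% that fell. Their sum was 7947, 4004 and 6779 TPM in brown replicates 1, 2 and 3, against 5670, 7207 and 6648 TPM in white replicates 1, 2 and 3. Within each variety it was lowest where the 3 genes were highest (brown replicate 2 and white replicate 1), and highest where they were lowest (brown replicate 1 and white replicate 2). Not all genes of the list followed the sum. The most abundant, Rubisco small subunit TRINITY_DN10167_c0_g2, had 2549, 909 and 1818 TPM in brown replicates 1, 2 and 3. Rubisco small subunit TRINITY_DN7255_c0_g1 went the other way there, with 72.0, 160 and 118 TPM. The 9 cuticle and epidermis genes summed to 103 to 124 TPM in brown and 40.2 to 84.6 TPM in white husk. None of the 8 tested passed, against 3.83% and 2.17% of all tested genes. Their log2 fold changes ran from -1.95 to 1.51. The highest was that of 3-ketoacyl-CoA synthase 10 (TRINITY_DN14359_c3_g1), at 80.9 to 94.5 TPM in brown and 15.5 to 44.6 TPM in white husk (limma adjusted p = 0.0527). Of 6 genes of lignifying xylem, where PAL and C4H are commonly active, 1 rose and none fell, against 3.83% and 2.17% of all tested genes. That was a cellulose synthase A 7 gene (TRINITY_DN15855_c0_g2) at 3.06 to 4.76 TPM in brown and 0 to 0.37 TPM in white husk. It entered the test only through its brown values. The cellulose synthase A 8 genes TRINITY_DN9578_c0_g1 and TRINITY_DN9578_c0_g2 had log2 fold changes of -0.53 and -1.45 and did not pass. The rest of the list, with further genes of both kinds, lay at 0.28 to 0.88. The xylem list summed to 17.2 to 25.1 TPM in brown and 12.9 to 21.1 TPM in white husk. The 16 phloem genes summed to 1088 to 1177 TPM in brown and 1066 to 1321 TPM in white husk. None of them passed, against 3.83% and 2.17% of all tested genes. The 4 genes of the seed storage list are oleosin 1-like or basic 7S globulin-like. They summed to 22.2 to 37.7 TPM in brown and 38.9 to 54.8 TPM in white husk. Of them, 1 rose and 2 fell, against 3.83% and 2.17% of all tested genes. The globulin-like TRINITY_DN16800_c0_g1 rose, at 1.67 to 19.1 TPM in brown and 0 TPM in white husk (limma adjusted p = 0.0459). The globulin-like TRINITY_DN15142_c6_g6 fell, at 0.11 to 0.13 TPM in brown and 2.56 to 2.73 TPM in white husk (limma adjusted p = 0.0161). The first entered the test only through its brown values and the second only through its white values. The oleosin 1-like TRINITY_DN17035_c0_g1 fell, at 3.40 to 6.24 TPM in brown and 9.82 to 13.3 TPM in white husk (limma adjusted p = 0.0487). The part of any of these marker lists in the PAL and C4H values was not tested.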

How the data were processed

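Samples were grouped by the colour in their labels, 3 libraries each. Per the submitters' processing notes, the tools included FastQC and cutadapt. The authors deposited TPM for each gene of a Trinity assembly, as the identifiers show, with gene length in bases and protein descriptions. For the quantifier, the sources used here give no name. Each listed gene has a maximum over libraries of at least 2.01 TPM. No sequences were used here.

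From the deposited TPM, log2(TPM + 1) was computed, and genes of at least 1 TPM in at least 3 of 6 libraries were tested (37829) with limma 3.58.1 in R 4.3.3 with a mean-variance trend, without covariates, with Benjamini-Hochberg adjustment. When a library was left out the tested genes stayed the same. The fit was tested on simulated data with noise drawn independently for each gene and library. Differences of whole libraries, as in white replicate 2, were not simulated, so that run does not cover them. Ratios were compared by an exact permutation test. Lists are text patterns matched to the main and Swiss-Prot descriptions. The 3 genes and the lists were chosen with earlier results of these data known. Named genes are all PAL and C4H genes, cluster members and the 5 closest profiles among tested genes with a naming description. From each other list they are up to 4 genes past the threshold and the 2 highest by mean TPM. Marker genes, past the threshold or not, were named after their values were seen. So were the 4-coumarate--CoA ligase 1-like and 2-like genes. Replicate numbers did not pair libraries.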

Additional observations from a re-analysis of the deposited data

How the results depend on the processing

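Alternatives were pseudocounts of 0.1 and 0.5, no filter, a filter of 5 TPM, array weights, the replicate number as a block, no trend, quantile normalization, trimmed mean of M values factors, and leaving out each library. The PAL-like gene kept its sign and its call in all 15, with log2 fold changes of 3.14 to 3.95. The PAL gene kept its sign and passed in none (0.49 to 1.88). The C4H gene passed in none and turned to -0.0071 with trimmed mean of M values factors, and it ranged from -0.34 to 0.81 when 1 library was left out. The 3 ratios kept their sign without 1 library, over ranges of 1.96 to 2.68 for PAL-like over PAL, 3.15 to 3.51 for PAL-like over C4H and 0.83 to 1.24 for PAL over C4H, and were 2.52, 3.70 and 1.18 in that order without a pseudocount. The calls over all genes, 2269 in all, became 669 to 2268 without 1 library, and the 9 calls in the lists became 1 to 8. Fewer samples enter those fits.

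Same-numbered libraries had correlations of deviations over genes of 0.057, 0.056 and 0.011, too low to pair them, though each library correlated best with its own number. With the replicate block the calls were 1225 over all genes and 2 in the lists, and the PAL-like gene passed (limma adjusted p = 0.0393). Among other named genes below the threshold, signs turned with trimmed mean of M values factors for TRINITY_DN15955_c0_g2 (-0.032), TRINITY_DN13692_c0_g1 (-0.030), TRINITY_DN11344_c0_g2 (-0.20), TRINITY_DN13313_c0_g1 (-0.076), TRINITY_DN11587_c1_g7 (-0.058) and TRINITY_DN12199_c1_g2 (-0.14), and with quantile normalization for TRINITY_DN15955_c0_g2 (-0.14). Without 1 library, TRINITY_DN11344_c0_g2 ranged from -0.030 to 0.087, TRINITY_DN13538_c1_g1 from -0.54 to 0.012, TRINITY_DN14199_c0_g1 from -0.067 to 1.49 and TRINITY_DN11587_c1_g7 from -0.063 to 0.30. The cause was not tested. TPM keeps no depth, so the counting error of low genes is unknown.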
